A study of Homo sapiens with 6 samples.

Results

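The T-box factors are transcription factors that share a DNA-binding domain first described in brachyury. The 10 genes described here were chosen by symbol, with earlier results of these data known. The genes are T (brachyury, TBXT in current annotation), EOMES, TBX6, TBX1, TBX2, TBX3, TBX4, TBX5, TBX18 and TBX20. They are 10 of the symbols in a pair of RNA-seq tables, which share 37803 symbols that stand once in each. RNA was measured in H1 cells, an established human embryonic stem cell line, at day 2 of hematopoietic differentiation. Cells grown toward mesoderm with activin A and BMP4 (40 and 50 ng/ml per the labels, the other way round in the methods) formed the WT group. The SNAI1_1 and SNAI1_2 groups were H1 cells with SNAI1 deleted, collected at the same day under the same treatment. The study made its deletions with CRISPR/Cas9 and used a pair of knockout lines for a gene. The labels do not say whether the first number in a title stands for a line. Each group had 2 libraries, 1 in each table, and nothing in the labels says that they came from separate cultures, so the p-values measure only the spread between these libraries.

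T-box proteins read a common DNA element, and the embryo uses them in sequence as cells leave pluripotency. Activin or NODAL signals turn on EOMES, and WNT and BMP signals turn on T. EOMES is known for the anterior primitive streak, the definitive endoderm and the cardiac mesoderm. T is known for the posterior streak and notochord, and TBX6 for the presomitic mesoderm. TBX2 and TBX3 act mainly as repressors, and TBX1, TBX4, TBX5, TBX18 and TBX20 pattern the pharynx, limbs and heart at later stages. SNAI1 itself is a zinc finger repressor that binds E-boxes and is known for lowering CDH1 when epithelial cells become mesenchymal.

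The level of SNAI1 was analyzed first. SNAI1 transcript was 37.1 and 36.4 FPKM in WT, 51.6 and 47.8 in SNAI1_1, and 68.6 and 55.0 in SNAI1_2. FPKM scales the fragments of a gene by the length of its transcript and by the mapped fragments of the library. The transcript was therefore not lower in the libraries labelled as deleted. In the limma comparison described below, SNAI1 was called higher with both knockout groups against WT (log2 difference 0.58, adjusted p 0.00461). So were 15.8% of all genes tested. Since a frameshift can leave the transcript in place, the level of SNAI1 does not check the labels. Directions given here follow the labels. The tables hold no counts, so the depth of each library is unknown; 13626 to 14164 symbols reached 1 FPKM in a library. The tables were normalized separately, so each knockout library was compared with the WT library of its own table.

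Of the 10 T-box genes, 5 were at or above 1 FPKM in both WT libraries and 4 in each knockout library. In WT of the first and of the second table, EOMES stood highest, at 194.4 and 204.3 FPKM. TBX3 followed at 58.3 and 67.7 FPKM, then T at 17.8 and 38.7, TBX6 at 15.02 and 15.17, and TBX20 at 3.28 and 3.63. In WT, T was 1.18 times its neighbour TBX6 in the first table and 2.55 times in the second, with 1 library each. Across the tables T was at 28.2 ± 14.8 FPKM (SD, n = 2) and TBX6 at 15.1 ± 0.108. This SD includes the difference between the tables, and whether T and TBX6 differ was not tested. The remaining genes were below 1 FPKM in all 6 libraries. In the knockout libraries the order changed at the top: T stood above EOMES in 3 of 4 libraries, and in the SNAI1_1 library of the first table the levels were 129.6 FPKM for T and 131.8 for EOMES. In SNAI1_1, T was 0.984 times EOMES in the first table and 1.78 times in the second. Across the tables T and EOMES were at 173.6 ± 62.2 and 126.9 ± 6.98 FPKM in SNAI1_1, and whether they differ was not tested.

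**Figure D1:**
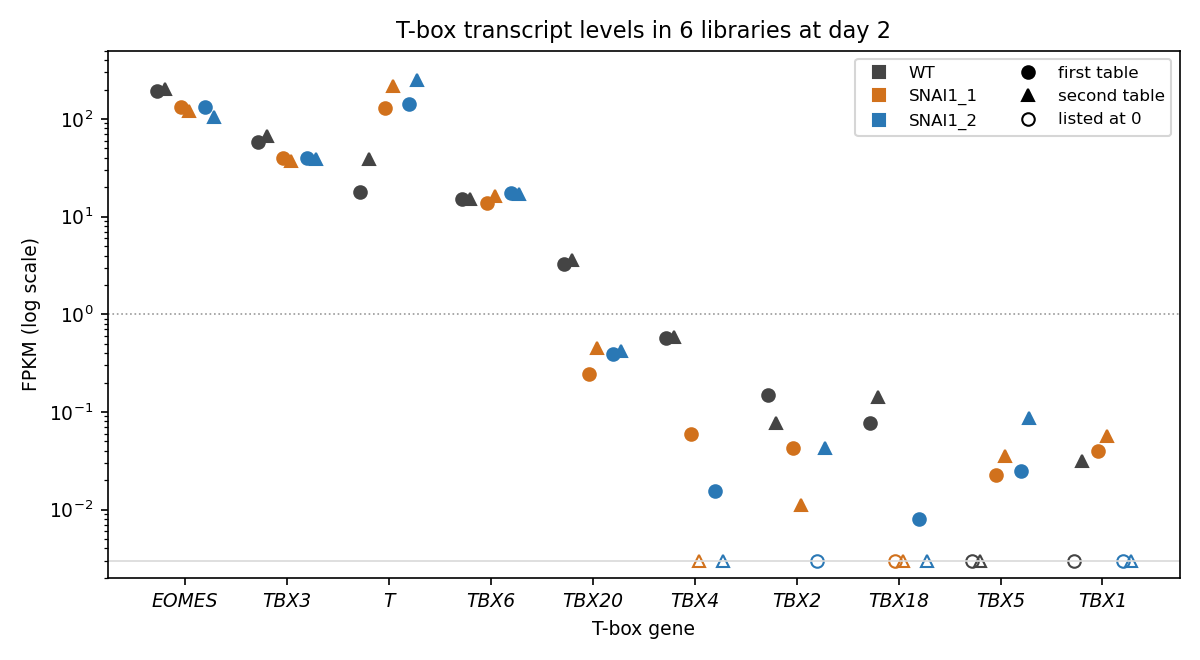
Level in FPKM (log axis) of each of the 10 T-box genes in the 6 libraries, coloured by group and with the table as the symbol; open symbols on the lowest line are libraries listed at 0, and the dotted line is 1 FPKM. The 4 knockout libraries of T lie between 129.6 and 251.3 FPKM, above both WT libraries, while EOMES, TBX3, TBX20 and TBX4 lie below WT.

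To ask whether deletion of SNAI1 changed these levels, the knockout groups were compared with WT by limma on log2(FPKM + 1), with the table as a block. A gene was tested where its mean over the libraries was at least 1 FPKM, and called where the p-value, adjusted by Benjamini-Hochberg over all 13909 genes tested, was under 0.05. The filter left 5 T-box genes, of which 4 were called with both knockout groups against WT: T was higher, and EOMES, TBX3 and TBX20 were lower. TBX20 passed the filter only through its WT libraries. Over all genes tested, 31.3% were called, 15.8% higher and 15.4% lower. The share of genes called is thus large in these data, and 5 genes are few to set against it. A change of this kind in bulk RNA cannot tell fewer cells of a type from less RNA per cell.

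T, the brachyury gene itself, rose in every knockout library. Its level was 17.8 FPKM in WT, 129.6 in SNAI1_1 and 143.3 in SNAI1_2 of the first table. In the second table it was 38.7, 217.6 and 251.3 FPKM. The knockout libraries were all above both WT libraries, as were those of 16.9% of all genes tested. Within a table the ratio of knockout to WT was 7.29 and 8.06 in the first and 5.63 and 6.50 in the second. The log2 difference was 2.72 ± 0.080 (SE), with a 95% interval of 2.52 to 2.92 and an adjusted p of 0.000142 by limma. Of the 13909 genes tested, 35 had a larger positive difference. Among the same genes, T moved from the 65.1 and 81.6 percentiles of level in the WT libraries to between 95.3 and 97.6 in the knockout libraries. The level of T also differed between the tables, and the second was 2.17 times the first in WT, 1.68 times in SNAI1_1 and 1.75 times in SNAI1_2. The call for T with both groups together held under all 15 alternatives, with log2 differences of 2.54 to 2.87.

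EOMES, the other early mesendoderm factor, moved the opposite way. It was at 194.4, 131.8 and 132.2 FPKM in WT, SNAI1_1 and SNAI1_2 of the first table, and at 204.3, 121.9 and 103.8 in the second. The groups did not overlap, and all knockout libraries were below both WT libraries, as were those of 17.1% of all genes tested. WT was 1.47 times each knockout library in the first table, and 1.68 and 1.97 times in the second. The log2 difference was -0.70 ± 0.088 (SE), with a 95% interval of -0.93 to -0.48 and an adjusted p of 0.00410 by limma. The level stayed high in the knockout cells, between the 93.6 and 95.4 percentiles of the genes tested. Without the filter on low values the adjusted p of EOMES was 0.123, and 0.0526 when symbols at 0 in every library were also left out.

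With T and EOMES moving in opposite directions, the make-up of the T-box transcripts differed between WT and knockout libraries while their sum was higher in each knockout library than in the WT library of its table. EOMES made up 67.1% and 61.9% of the summed FPKM of the 10 genes in WT and between 25.2% and 41.7% in the knockout libraries. T made up 6.14% and 11.7% in WT and between 41.0% and 61.1% in the knockout libraries. The ratio of T to EOMES was 0.0915 and 0.189 in WT and between 0.984 and 2.42 in the knockout libraries. Neither the shares nor the ratio overlapped between WT and knockout libraries. This restates the levels of T and EOMES, whose groups did not overlap, and is not a further result. The sum was 289.5 FPKM in WT beside 315.8 and 333.3 in the knockout libraries of the first table, and 330.2 beside 393.2 and 411.2 in the second.

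**Figure D2:**
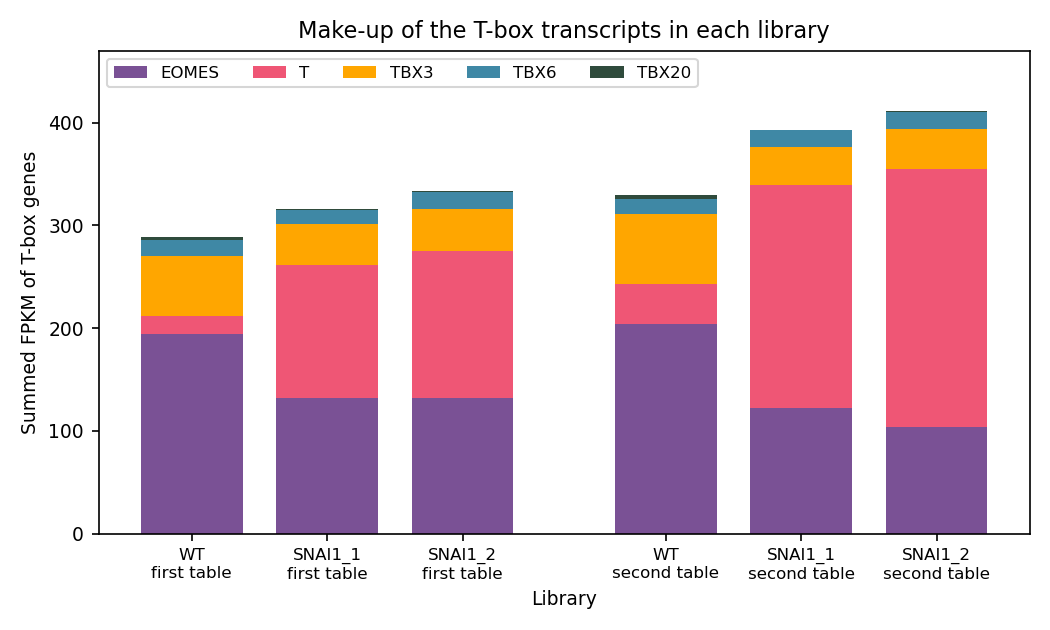
Summed FPKM of the T-box genes in each of the 6 libraries, as bars split by gene; the genes below 1 FPKM in every library are not drawn. EOMES is the largest part in WT (67.1% and 61.9%), and T reaches between 41.0% and 61.1% in the knockout libraries.

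TBX6, which acts downstream of T in the presomitic mesoderm, did not pass the test. It was at 15.02, 13.7 and 17.3 FPKM in WT, SNAI1_1 and SNAI1_2 of the first table and at 15.2, 16.3 and 16.9 in the second. The groups overlapped, since 1 knockout library was below both WT libraries and the others above. The log2 difference was 0.079 ± 0.086 (SE), with a 95% interval of -0.14 to 0.30 and an adjusted p of 0.524 by limma. A difference of the size seen for T or EOMES lies outside this interval.

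TBX3, a repressor that is known in pluripotent cells, in the second heart field and in the limb, fell to between 36.9 and 40.3 FPKM in the knockout libraries. It was at 58.3, 40.3 and 40.0 FPKM in WT, SNAI1_1 and SNAI1_2 of the first table and at 67.7, 36.9 and 38.7 in the second. No knockout library reached the lower WT library, as in 17.1% of all genes tested. The log2 difference was -0.68 ± 0.084 (SE), with a 95% interval of -0.89 to -0.46 and an adjusted p of 0.00397 by limma, and 0.109 without the filter on low values. TBX3 and EOMES kept a near ratio of levels in all 6 libraries, with TBX3 at 0.300 and 0.331 times EOMES in WT and at 0.302 to 0.372 times in the knockout libraries. Its close relative TBX2, also a repressor, was at 0.151 and 0.0778 FPKM in WT and at 0 to 0.0425 in the knockout libraries, below the filter and not tested.

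TBX20, a factor of the cardiac lineage, was lower in every knockout library. It was at 3.28, 0.244 and 0.390 FPKM in WT, SNAI1_1 and SNAI1_2 of the first table and at 3.63, 0.447 and 0.420 in the second. TBX20 passed the filter through its WT libraries alone, since every knockout library was below 1 FPKM, so a gene kept in this way had to differ. The groups did not overlap, and all knockout libraries were below both WT libraries, as in 17.1% of all genes tested. WT was 13.4 and 8.41 times the knockout libraries of the first table and 8.13 and 8.65 times those of the second. The log2 difference on the log2(FPKM + 1) scale was -1.70 ± 0.15 (SE), with a 95% interval of -2.07 to -1.33 and an adjusted p of 0.00133 by limma, and 73 genes tested had a larger fall. This scale understates the change of a gene near 1 FPKM, and the difference was -2.92 with a pseudocount of 0.1 and -0.65 with 5. Without the filter on low values the adjusted p was 0.0560, and without the WT library of the second table its mean no longer passed the filter.

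**Figure D3:**
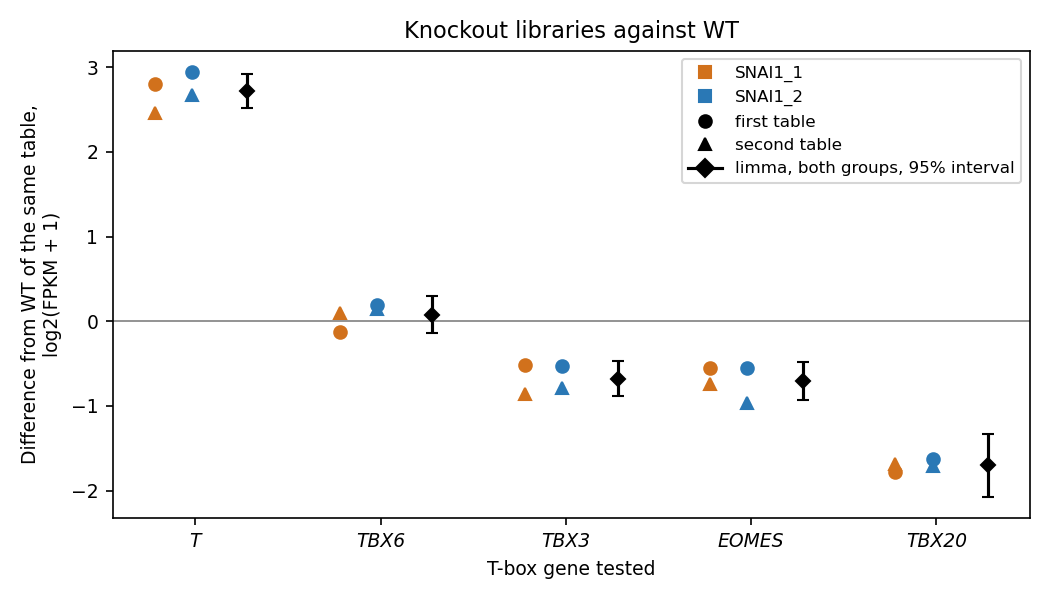
Difference of each knockout library from the WT library of its own table, in log2(FPKM + 1), for the 5 T-box genes tested; diamonds are the limma estimate over both knockout groups and bars its 95% interval. All points of T lie above 0, those of TBX3, EOMES and TBX20 below 0, and those of TBX6 on both sides.

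The other T-box genes of heart, limb and pharynx were below the filter. TBX4, the hindlimb factor, was at 0.570 FPKM in WT, 0.0594 in SNAI1_1 and 0.0153 in SNAI1_2 of the first table. In the second table it was at 0.584 FPKM in WT and listed at 0 in both knockout libraries. Its groups did not overlap, as in 17.1% of all genes tested, and TBX4 itself was not tested. TBX18, known from the sinus horn and the epicardium, was listed on 2 rows in each table and was left out of the test. Its first row was at 0.0775, 0 and 0.00802 FPKM in WT, SNAI1_1 and SNAI1_2 of the first table and at 0.142, 0 and 0 in the second, and the other row was at 0 throughout. TBX5, the heart and forelimb factor, was listed at 0 in both WT libraries and between 0.0225 and 0.0872 FPKM in the knockout libraries. TBX1, the pharyngeal factor, was between 0 and 0.0569 FPKM with overlapping groups. Its gene overlaps GNB1L on the opposite strand, which was at 6.95 to 17.2 FPKM, so reads of the pair may not be separable without strand. Levels this low have unknown precision, and a value of 0 says only that the gene was listed so.

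The remaining members of the family were low in these cells. Of 7 further T-box genes, MGA, a MAX partner that carries a T-box, passed the filter alone. MGA was at 5.47 and 4.98 FPKM in WT and between 3.95 and 5.11 in the knockout libraries, and limma gave a log2 difference of -0.20 (adjusted p 0.185). TBX10, TBX22, TBX19, TBR1, TBX15 and TBX21 were at most 1.04 FPKM in any library. The antisense RNAs TBX2-AS1, TBX5-AS1 and TBX18-AS1 were at most 0.186 FPKM. No annotated gene overlaps T, EOMES, TBX6, TBX3 or TBX20 in GENCODE release 29.

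Next, each knockout group was compared with WT on its own. The same 4 members were called in each, against 23.9% of all genes tested in SNAI1_1 and 25.5% in SNAI1_2. TBX20 among them passed the filter only through its WT libraries, so it had to differ. T was higher by 2.63 in SNAI1_1 and by 2.81 in SNAI1_2 on the log2 scale, with adjusted p of 0.000327 and 0.000282 by limma. EOMES was lower, at -0.65 and -0.76, with adjusted p of 0.0109 and 0.00624. TBX3 was at -0.69 and -0.66, with adjusted p of 0.00783 and 0.00822, and TBX20 at -1.73 and -1.66, with 0.00272 and 0.00281. These comparisons share their WT libraries and are not independent. The EOMES call in SNAI1_1 was lost without the SNAI1_1 library of the first table (adjusted p 0.0859), without that of the second (0.0742) and without the WT library of the second (0.0575). The TBX3 call was lost without the SNAI1_1 library of the second table (adjusted p 0.0623) in SNAI1_1, and without the SNAI1_2 library of the first (0.0580) or the second table (0.0744) in SNAI1_2. Without the table as a block, EOMES (adjusted p 0.109 and 0.0652) and TBX3 (0.0743 and 0.0735) were not called in either group, while with both groups together EOMES (0.0442), TBX3 (0.0378), TBX20 (0.00712) and T (0.0194) were.

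Between SNAI1_2 and SNAI1_1 no member was called, and 0% of all genes tested were called by limma. At an unadjusted p under 0.05 the count was 521 genes, and 1 gene was called by limma with a pseudocount of 5. T differed by 0.18 with a 95% interval of -0.057 to 0.41, and EOMES by -0.11 with an interval of -0.37 to 0.14. TBX6 differed by 0.18 (-0.069 to 0.43), TBX3 by 0.029 (-0.22 to 0.27) and TBX20 by 0.066 (-0.36 to 0.50), all on the log2 scale. No interval reached 0.65 in either direction, the smaller of the differences of EOMES from WT in size.

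The upstream sequences of T, EOMES and TBX20 are shown because SNAI1 binds the E-box CAGGTG, and T-box proteins bind the core element AGGTGTGA. RefSeq holds 250 bases before the annotated start for T, EOMES and TBX20, on build GRCh38.p14, whereas the tables were made on hg19 per the submitters' notes. Of the 10 genes, 8 matched the promoter table, and the called member TBX3 is not among them. T has 2 annotated starts, at chr6:166168656-166168905 and chr6:166167852-166168101 on the minus strand. The EOMES window is chr3:27722324-27722573 and the TBX20 window chr7:35254101-35254350, both on the minus strand. Capitals mark the E-box:
T start 1: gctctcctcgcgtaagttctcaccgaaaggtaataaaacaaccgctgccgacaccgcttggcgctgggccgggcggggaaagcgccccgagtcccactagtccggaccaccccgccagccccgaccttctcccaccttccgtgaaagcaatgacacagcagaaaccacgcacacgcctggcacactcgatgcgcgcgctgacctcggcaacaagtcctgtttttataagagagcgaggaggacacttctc
T start 2: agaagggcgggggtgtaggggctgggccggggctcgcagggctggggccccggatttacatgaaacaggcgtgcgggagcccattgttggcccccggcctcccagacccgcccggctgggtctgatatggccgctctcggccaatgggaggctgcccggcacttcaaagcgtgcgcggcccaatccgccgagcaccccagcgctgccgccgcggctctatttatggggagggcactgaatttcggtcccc
EOMES: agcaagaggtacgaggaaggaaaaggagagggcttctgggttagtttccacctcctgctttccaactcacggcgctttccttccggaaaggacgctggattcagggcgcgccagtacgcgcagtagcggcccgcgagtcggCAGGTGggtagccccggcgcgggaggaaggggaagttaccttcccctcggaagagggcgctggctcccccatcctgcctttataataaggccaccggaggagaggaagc
TBX20: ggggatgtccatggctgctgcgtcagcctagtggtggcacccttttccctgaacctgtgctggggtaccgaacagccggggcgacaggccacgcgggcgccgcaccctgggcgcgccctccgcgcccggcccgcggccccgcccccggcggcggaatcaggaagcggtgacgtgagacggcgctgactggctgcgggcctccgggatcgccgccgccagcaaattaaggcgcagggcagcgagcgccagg
Both strands were searched. The EOMES window holds 1 E-box, which begins 109 bases before the start, and the windows of T and TBX20 hold none. Of all 34943 windows of this length, 17.5% hold the E-box and 0.787% the T-box element, which was in none of the windows shown. The elements can overlap, since both contain AGGTG. The windows were rich in G and C, at 60.8% and 69.6% for T, 62.0% for EOMES and 74.0% for TBX20, beside a median of 58.0% over all windows. A match is only a match of letters, and no binding was measured here. The study itself reported, by chromatin immunoprecipitation with PCR, binding of SNAI1 protein at the TBX20 promoter. A window without the E-box letters therefore does not show that binding is absent.

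The signals that are known to induce T and EOMES were then examined, followed by 4 further lists. The counts of each stand beside 15.8% of all genes tested called higher and 15.4% called lower. Of 26 listed genes, 25 were tested, and 7 rose, 11 fell and 7 were not called, with a median log2 difference of -0.17 beside -0.050 over all genes tested. NODAL, the ligand that activates SMAD2 in the streak, was at 12.1 and 13.3 FPKM in WT and between 64.1 and 73.7 in the knockout libraries, a log2 difference of 2.34 (adjusted p 0.000142). FGF4 rose from 0.918 and 0.865 FPKM to between 6.65 and 10.5, and FGF2 from 9.34 and 17.6 to between 21.0 and 46.0. FGF4 passed the filter through the knockout libraries alone, so it had to differ. BMP4, whose protein was also added to the medium, fell from 181 and 165 FPKM to between 29.8 and 38.2, a log2 difference of -2.25 (adjusted p 0.000194). FGF8, a streak FGF, was lower at -0.69 and SMAD2 at -0.66, with adjusted p of 0.00178 and 0.00721.

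Genes that are known to act with or after the T-box factors in the streak and presomitic mesoderm went both ways. Of 12 listed, 10 were tested, and 3 rose, 5 fell and 2 were not called, with a median of -0.36. MSGN1, a presomitic factor downstream of T and TBX6, was at 0 and 1.07 FPKM in WT and between 2.41 and 4.31 in the knockout libraries, a log2 difference of 1.52 (adjusted p 0.0157). The WT mean of MSGN1 was below 1 FPKM, so it passed the filter through the knockout libraries and had to be higher there. EVX1, a posterior streak factor, was higher by 0.96 and SOX17, an endoderm factor, by 0.63, with adjusted p of 0.0124 and 0.0319. In SNAI1_2 alone SOX17 was not called by limma (adjusted p 0.0855). LHX1, an anterior streak factor, fell from 41.1 and 66.7 FPKM to between 15.5 and 20.0, a log2 difference of -1.55 (adjusted p 0.000815). MESP2 was at -1.52 and the Notch ligand DLL3 at -0.87, with adjusted p of 0.00120 and 0.00258. MESP1, a target of EOMES in cardiac mesoderm, was at -0.43 and FOXA2 at -0.54, and both were called lower. The FOXA2 call was lost without the first table's WT library (adjusted p 0.0571) or that of the second (0.103), and FOXA2 was not called in SNAI1_1 alone (0.0633). MIXL1 (-0.11, adjusted p 0.205) and GSC (-0.29, adjusted p 0.0839) were not called. All 3 rises were lost when a library was left out: MSGN1 without the first table's WT library (adjusted p 0.0772) or either SNAI1_1 library (0.0586 and 0.0502), EVX1 without the SNAI1_2 library of the first (0.0534), and SOX17 without the WT library of the first (0.0684), the SNAI1_2 library of the first (0.0884) or either SNAI1_1 library (0.0998 and 0.0635).

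Cardiac genes that T-box factors are known to work with mostly fell along with TBX20 and TBX3. Of 13 listed, 9 were tested, and 5 fell, 1 rose and 3 were not called, with a median of -0.71. HAND2, a basic helix-loop-helix factor of the heart, fell from 6.75 and 10.1 FPKM to between 0.432 and 0.655, a log2 difference of -2.61 (adjusted p 0.000426). HAND2 passed the filter through its WT libraries alone, and GJA5, given below, through the knockout libraries alone, so both had to differ. HAND1 fell from 242 and 201 FPKM to between 47.2 and 66.4, a log2 difference of -1.96 (adjusted p 0.000143). NKX2-5, a partner of TBX5 and TBX20, was at 10.6 and 28.9 FPKM in WT and between 5.22 and 7.13 in the knockout libraries, and its call (adjusted p 0.0130) was lost without the SNAI1_2 library of the second table (0.0524). GATA4 (-1.23) and GATA6 (-0.71) were the other genes called lower. GJA5, a connexin gene that TBX5 activates, was higher by 1.08 (adjusted p 0.0400), and that call was lost without the WT library of the second table (0.199), either SNAI1_1 library (0.0951 and 0.112) or the SNAI1_2 library of the second (0.0946). GJA5 was not called by limma in SNAI1_1 alone (adjusted p 0.0695) or in SNAI1_2 alone (0.0670).

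Of the 5 listed genes that TBX2 or TBX3 are known to repress, all were tested and 4 rose with both groups against WT, with a median of 1.12. CDKN2B and CDKN2A among them passed the filter through the knockout libraries alone, so they had to differ. In SNAI1_1 alone 3 rose. CDH1, the E-cadherin gene and also a known target of SNAI1, rose from 10.3 and 18.5 FPKM to between 76.6 and 100.4, a log2 difference of 2.56 (adjusted p 0.000292). The cell cycle inhibitor genes CDKN2B and CDKN2A were higher by 1.42 and 1.12, with adjusted p of 0.00146 and 0.00575. CDKN2A was at 0.102 and 0.461 FPKM in WT and between 1.38 and 2.36 in the knockout libraries, and its call was lost without the first table's WT library (adjusted p 0.0537). CDKN1A was higher by 0.30. The part of TBX3 in these changes was not tested.

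The cofactors that T-box proteins are known to bind were mostly lower or not called. Of 11 listed, 9 were tested, and 1 rose, 5 fell and 3 were not called, with a median of -0.25. The histone demethylase gene KDM6B fell from 6.89 and 8.62 FPKM to between 2.41 and 3.09, a log2 difference of -1.18 (adjusted p 0.00226). The corepressor gene TLE3 was at -0.72 (adjusted p 0.00220) and the chromatin remodeller gene SMARCA4 at -0.36 (adjusted p 0.00634), the second of which was lost without the WT library of the second table (0.0636). TLE2, another corepressor gene, was higher by 1.02 (adjusted p 0.00260), although its WT level was 4.83 FPKM in the first table and 42.3 in the second.

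**Figure D4:**
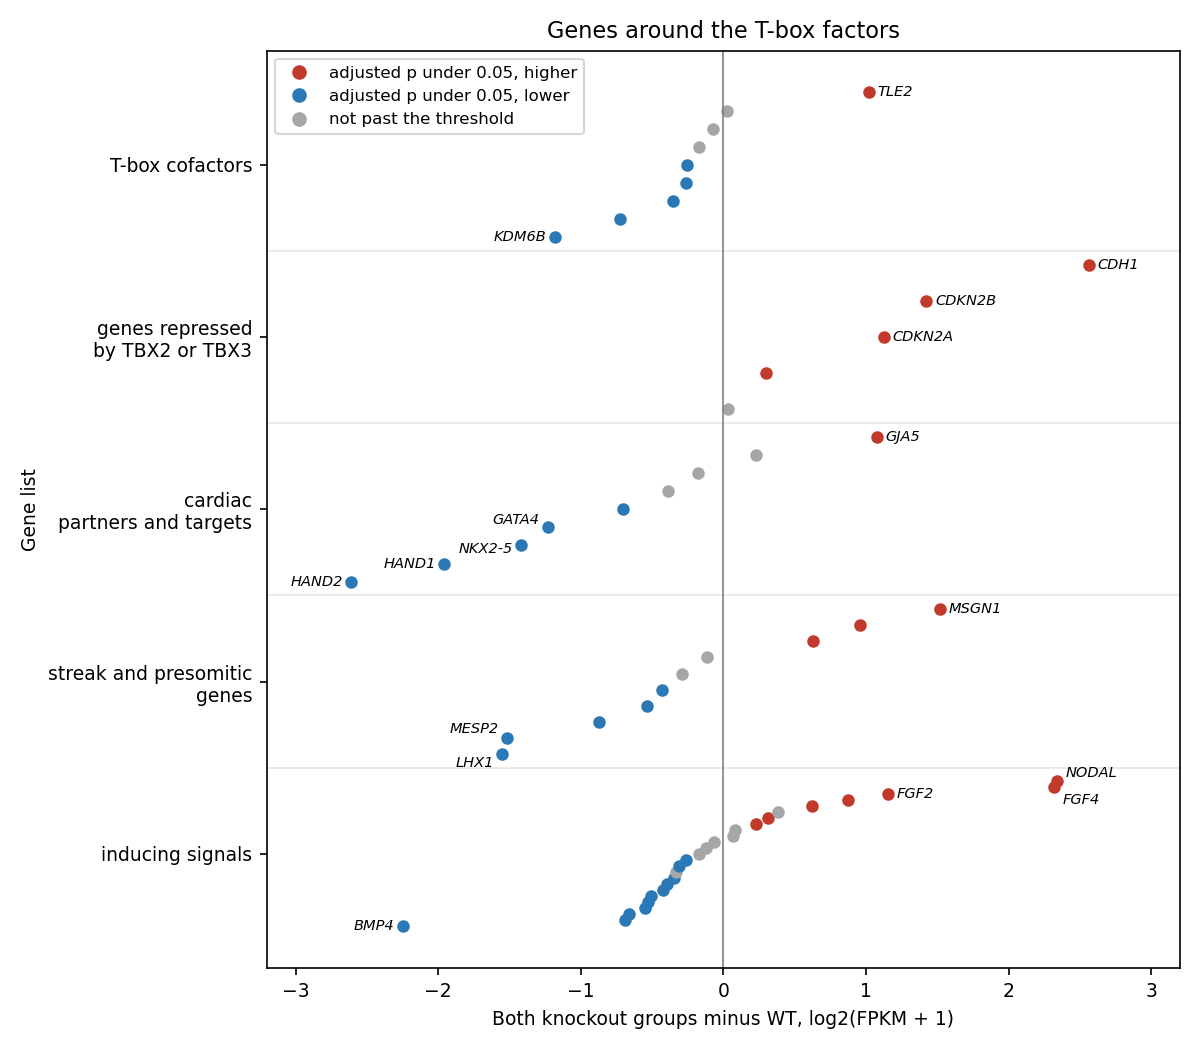
Fitted log2 difference of both knockout groups from WT for each tested gene of 5 lists, with 1 point a gene, coloured by whether it was called; called genes past a difference of 1 in either direction are named. All 4 called genes among those that TBX2 or TBX3 are known to repress lie to the right, and cardiac partners lie mostly to the left. FGF4, GJA5, CDKN2A and CDKN2B passed the filter through the knockout libraries alone, and HAND2 through WT alone. MSGN1, with a WT mean below 1 FPKM, also passed it through the knockout libraries.

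These lists were also sensitive to the fit. Without the table as a block the calls were 3 higher and 1 lower for the inducing signals, 0 and 3 for streak genes, 0 and 3 for cardiac genes, 3 and 0 for the repressed genes and 0 and 1 for the cofactors, beside 5.51% of all genes tested called higher and 2.15% lower. Without the filter on low values they were 2 and 3, 0 and 0, 0 and 2, 1 and 0, and 0 and 0 in the same order, beside 1.11% and 0.823% of all genes. At an unadjusted p under 0.05, limma then counted 8 streak genes and 8 cofactors. The fall in list calls cannot be told from the general fall. With a library left out, the inducing signals had 5 higher and 3 to 7 lower, the fewest without the second table's WT library. The streak genes had 1 to 3 higher and 3 to 6 lower, the cardiac genes 0 to 1 and 4 to 5, the repressed genes 2 to 3 higher and the cofactors 1 higher and 2 to 4 lower, beside 8.43% to 11.7% of all genes higher and 4.68% to 9.40% lower. FGF4, HAND2, GJA5, CDKN2A and CDKN2B passed the filter through 1 side alone, with every library of WT or of the knockout groups below 1 FPKM. MSGN1, at 0 and 1.07 FPKM in WT, had a WT mean below the filter and passed it through the knockout libraries.

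Markers of the cell types that the culture could hold moved in the same libraries, beside 15.8% of all genes called higher and 15.4% lower. These lists share genes with those above: MESP1, MESP2, MIXL1, SOX17, FOXA2, GATA6 and NKX2-5 stand in both, so their calls are not further results. Mesoderm markers were lower, with 5 of 6 called lower and MIXL1 not called, and 2 called lower without the first table's WT library. Their summed level was 1244 and 1184 FPKM in WT and between 707.3 and 823.8 in the knockout libraries. After MESP2, the largest falls were those of APLNR at -1.27 and KDR at -0.56, with adjusted p of 0.000421 and 0.00683 by limma. The KDR call was lost without the first table's WT library. Pluripotency markers were higher for 3 of 6, with a sum of 803.4 and 898.7 FPKM in WT and between 1044 and 1332 in the knockout libraries. NANOG was higher by 1.14 and POU5F1 by 0.57, with adjusted p of 0.00634 and 0.000857, and the NANOG call was lost without the first table's WT library (0.0737). SOX2, which defines the pluripotent state together with these, was at most 2.18 FPKM in any library. DPPA4, the other pluripotency marker called, was higher by 0.41 (adjusted p 0.00577 by limma). Its call was lost without the second table's WT library.

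Endoderm and amnion markers moved too. Of 5 endoderm markers 3 were lower and SOX17 higher, with a sum of 3507 and 3132 FPKM in WT and between 1433 and 2045 in the knockout libraries, of which CER1 made the largest part. Of 8 amnion or trophoblast markers 5 were tested, and TFAP2A, CDX2 and GABRP were higher by 1.82, 1.97 and 1.16 while GATA3 was lower, at -0.87. The sums of that list overlapped, at 37.0 and 58.4 FPKM in WT and between 44.7 and 75.1 in the knockout libraries. The CDX2 call was lost without the first table's WT library (adjusted p 0.0686), and the GABRP call without that of the first (0.131) or the second (0.0612). Of 4 neural markers OTX2 was tested and not called; SOX1 was at most 0.0169 FPKM, while PAX6 was at 1.29 and 2.38 in WT and between 0.0242 and 0.184 in the knockout libraries. Of 3 endothelial markers TEK was tested and not called, and PECAM1 and CDH5 were at most 0.166 and 0.262 FPKM. Of 5 cardiac muscle markers 3 were tested, and TNNT2 and MYL7 were higher by 1.49 and 1.27 while NKX2-5 was lower; their sum was 102.9 and 115.3 FPKM in WT and between 188.4 and 271.9 in the knockout libraries. Without the table as a block, 2 mesoderm markers were lower, 1 pluripotency marker was higher and 0 endoderm markers were called by limma, with 1 at an unadjusted p under 0.05. The amnion list then had 2 higher and the cardiac muscle list 2 higher. Without the filter on low values limma called 0 of 37 marker genes, with 23 at an unadjusted p under 0.05. GABRP passed the filter only through the knockout libraries. The part of these cell types in the T-box changes was not tested.

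Finally, the genes with the pattern most like each called member were found by the root mean square distance over the 6 libraries, after each table was centred. This is a description over 6 values and 13909 genes, with no test. Nearest to T were OCLN (0.085), CDH1 (0.093) and NMRK2 (0.10), of which the first 2 encode junction proteins of epithelia. OCLN was at 2.15 and 1.90 FPKM in WT and between 14.0 and 19.2 in the knockout libraries. Nearest to EOMES were BMP2 (0.032), SLC27A6 (0.038) and GATA6 (0.042). BMP2, a BMP ligand, was at 143.4 and 207.9 FPKM in WT and between 96.2 and 128.3 in the knockout libraries. Nearest to TBX3 were JUNB (0.016), WIZ (0.029) and ZHX1 (0.036). Nearest to TBX20 were CNTFR (0.056), COBLL1 (0.060) and EPHB2 (0.061), each with a log2 difference between -1.62 and -1.69.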

How the data were processed

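RNA-seq was deposited by the authors as FPKM values per gene symbol in 2 tables, each with a WT, an SNAI1_1 and an SNAI1_2 library (total RNA, 2 ug per the labels). The submitters' processing notes name BWA, Bowtie, RSEM and hg19; versions and annotation are not given in the sources used here. A heading inside the second table names FPKM; the first table names no unit and was taken as FPKM from the like size of its values. Symbols found once in both tables were joined, and log2(FPKM + 1) was fitted in limma 3.58.1 (R 4.3.3) with trended variance, 3 groups and the table as a block, for symbols with a mean of at least 1 FPKM. The fit had 2 residual and 3.34 prior degrees of freedom and was tested on simulated data. The difference of the second table from the first, taken in each group, correlated between groups across genes at 0.616 to 0.676. The groups thus share a difference between the tables, which does not show that libraries of a table came from matched cultures. Alternatives changed the block, pseudocount, filter, scaling and the libraries used. Depth is unknown, so no counting intervals are given. All 6 columns were used.

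The members and lists were chosen with earlier results of these data known. Genes were named by rule: all members, the other T-box genes, up to 3 of the largest called rises and falls in each list, and the 3 nearest genes to each called member. MESP1, FOXA2, MIXL1, GSC, GATA4, GATA6, CDKN1A, SOX2, SOX1, PAX6, OTX2, PECAM1, TEK and CDH5 were named after their values were seen. The values of 1 listed gene are not reported here. Sequences are from RefSeq, GRCh38.p14.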

Additional observations from a re-analysis of the deposited data

How the results depend on the processing

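Over 317 alternatives for single T-box genes, 277 kept direction and side of the threshold, 26 lost the call, 7 gained one, each for TBX4, which passes a lower filter only through WT, and 7 changed sign. The 317 include TBX6, the members below the filter and every comparison of SNAI1_2 with SNAI1_1, which had no call to lose. The 26 losses thus fall on T, EOMES, TBX3 and TBX20 against WT, and the 277 do not measure how stable those calls were. With both knockout groups against WT, members called were 2 of 9 tested without the filter on low values, and 3 to 4 when a library was left out; genes called were 1065 without the replicate block, 732 without the filter, 2139 without the filter and without symbols at 0 in every library (added after seeing the data), and 1825 to 2919 with a library left out. In SNAI1_1 members called were 2 without the block, 0 without the filter and 2 to 4 with a library left out, and genes called 576, 0 and 1034 to 2479, with 1008 under the added alternative. In SNAI1_2 members called were 2 without the block, 0 without the filter and 3 to 4 with a library left out, and genes called 698, 0 and 1240 to 2781, with 1216 under the added alternative. The count of 0 without the filter comes with a larger number of genes tested, and the unadjusted p-values changed as well. By limma the unadjusted p of T was 4.8e-07 in SNAI1_1 and 3.4e-07 in SNAI1_2 with the filter. Without the filter it was 0.00039 and 0.00033. The cause of these and the other differences was not tested. Between SNAI1_2 and SNAI1_1 a pseudocount of 5 gave 1 gene. With a library left out, TBX6 in SNAI1_1 ranged from -0.13 to 0.11, with 0.033 among them. Between the knockout groups EOMES ranged from -0.28 to 0.050, TBX3 from -0.075 to 0.13, with -0.017 among them, and TBX20 from -0.0061 to 0.14, with -0.0019 among them. With 1 library for a group and table, a group left with 1 library is assumed to vary like the others. Values without counts carry no depth, so levels under 1 FPKM have unknown precision.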
